A study of Mus musculus with 8 samples.

Results

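Ery C is an erythroid RNA class of c-Kit-enriched progenitors in the bone marrow of FlkSwitch mice. Its members are the cells named Ery C in the authors' annotation, which rests on RNA alone. They were 3471 of 22602 annotated cells and are described here by 35 surface proteins that had no part in naming them. The proteins were read as antibody-derived tags (ADTs), DNA barcodes on antibodies whose counts in a cell stand for the amount of each protein on its surface. FlkSwitch mice carry a Flk2-Cre transgene and the mT/mG reporter on a C57Bl/6 background, so a cell that passes through a Flk2-expressing stage switches from membrane Tomato (Tom) to GFP for good. All mice carried both alleles, and the groups differed by age, with Young mice of 2 to 3 months and Old mice of 20 to 24 months. The reporter depends on how often Cre acts, which differs by sex, and GFP and Tom were read in males in the study. Marrow was taken from hind leg and hip bones, and live, lineage-, c-Kit+ cells were sorted as CD150- or CD150+. The antibodies that removed lineage cells included TER-119, so the sort limited how much TER-119 an analysed cell could carry. CD150 was a sort marker too, so the sort also acted on the CD150 levels given below.

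Erythroid progenitors descend from Kit-dependent precursors and turn into haemoglobin-making erythroblasts. On the way they are known to gain CD105 (endoglin, a co-receptor for TGF-β), then TER-119 (an antigen associated with glycophorin A), and to lose CD117, the Kit receptor for stem cell factor. CD44, a receptor for hyaluronan, is high on early erythroblasts and is lost late. The transferrin receptor CD71, a common stage marker, was not in the panel.

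Each cell carried 1 of 16 group names, with a first letter (A, B, C or D) and a number (1 to 4), where numbers 1 and 2 were Young and numbers 3 and 4 were Old. These names match none of the 8 library titles, and how a cell group relates to an animal, a library or a CD150 fraction was not given in the sources used here. All cells were therefore treated as 1 sample and no significance test was run. Differences were taken inside each cell group that held at least 20 cells of both classes, and the SD over cell groups describes spread alone. A protein was called when its difference had 1 sign in every such cell group and a mean of at least 0.1. The normalized score is the count of a protein relative to the geometric mean of all 35 counts of the same cell, taken through 2 logarithms, so differences of scores are given and not folds. The share of a cell's ADT counts, in percent, is given where a linear quantity is needed.

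Ery C was almost entirely a class of letters A and B, which held 3300 of its cells (95.1%), against 171 in letters C and D. Cell group A1 held 1117 Ery C cells and B1 held 1055, A3 held 480 and B3 held 471, and A2 and B2 held 85 and 84. The other 10 cell groups held between 0 and 67. Another RNA class, Ery B, was split the other way, with 3 of its 1463 cells (0.205%) in letters A and B. Ery C and Ery B together made up 25.6% of the cells of letter A, 24.2% of B, 15.2% of C and 19.3% of D. The letters thus differed less in the sum of both classes than in either class. What the letters stand for was not given, so letter and class cannot be told apart.

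The median Ery C cell had 1731 ADT counts (interquartile range 1354 to 2174.5), 56357 RNA UMIs and 6382 genes, against 1852 ADT counts and 44345 RNA UMIs over all cells. Within Ery C, the cell groups of number 2 were shallower, with medians of 980 counts in A2 and 1087.5 in B2 against 1614 to 1894 in A1, A3, B1 and B3. RNA depth did not follow that order so closely, with medians of 52384 and 55622.5 UMIs in A2 and B2 and 54658 to 60441 in the other groups. Of the Ery C cells, 9 had fewer than 300 ADT counts and 6 had more than 3 times the median. No cell barcode was shared between cell groups of 1 letter, and 2 barcodes of Ery C cells occurred in 2 letters.

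A few proteins filled most of the ADT counts of Ery C. CD44 took 60.6% of the counts in letters A and B, CD105 10.7%, CD48 9.83%, CD117 8.95% and CD79b 5.34%, which sum to 95.5%. CD48 is a SLAM family protein of most blood cells, and CD79b is a chain of the B cell receptor complex. TER-119 followed with 1.13%, and F4/80, a macrophage antigen, had 0.208%. For 12 of the 35 proteins the median Ery C cell had no count, CD38, CD86, CD11c and CD41 among them.

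The label was checked against its markers CD105, CD44, CD117 and F4/80. All cells were sorted as c-Kit+, so the presence of CD117 could not check it. The mean score of CD44 was 1.87 in A1, 1.78 in A2, 1.85 in A3, 1.88 in B1, 1.79 in B2 and 1.86 in B3. That of CD105 was 1.56, 1.16, 1.56, 1.57, 1.19 and 1.58 in the same order, so the 2 cell groups of number 2 stood below the other 4. CD117 had 1.49, 1.57, 1.49, 1.5, 1.58 and 1.5, and here the groups of number 2 stood above the others. Among 18 RNA classes of letters A and B, Ery C had the second highest mean of CD44 and of CD105, each below Ery 4 alone, and the seventh highest of CD117. Ranks here and below used means over all cells of a class, without cell groups as blocks. That matters for CD105, which was 0.594 higher than in the class Early Ery A without blocks and 0.251 higher within cell groups. F4/80 did not set the class apart, with means of 0.410 to 0.476 in its 6 cell groups, the eighth highest of 18 classes, whose means all lay between 0.364 and 0.491.

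TER-119, which was not among the markers, also stood second to Ery 4. Its score was 0.916 in A1, 0.466 in A2, 0.758 in A3, 0.963 in B1, 0.449 in B2 and 0.793 in B3. The groups of number 2 were again below the others, and their ranges did not overlap. At least 1 TER-119 count was found in 97.9% of Ery C cells, but also in 58.2% of cells of the class GMP/Neut progenitor A, which should lack the protein. With every cell thinned to 300 counts these shares were 83.1% and 10.1%, at original median depths of 1738 and 2743.5 counts, and that of Early Ery A was 22.9%, that of Early Ery B 26.3% and that of Ery 4 87.2%.

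At the other end, Ery C had the lowest mean of the 18 classes for 7 proteins, CD54, CD16/32, CD38, CD86, CD11c, CD41 and CD4, and the second lowest for CD9, CD27, MHCII, CD61 and CD69. The 6 proteins of the megakaryocyte and platelet list did not rank alike. CD41, CD61 and CD9 were at or next to the bottom, but CD62P ranked 12, CD150 ranked 8 and CD63 ranked 4 from the top of the 18 classes. The mean score of CD41, the integrin chain of platelets, was between 0.0467 and 0.0842 in its 6 cell groups, that of CD61, its partner chain, between 0.128 and 0.193, and that of CD9 between 0.460 and 0.548. The myeloid marker CD11b lay between 0.0278 and 0.0347. Of the stem cell markers, CD34 lay between 0.138 and 0.159.

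**Figure D1:**
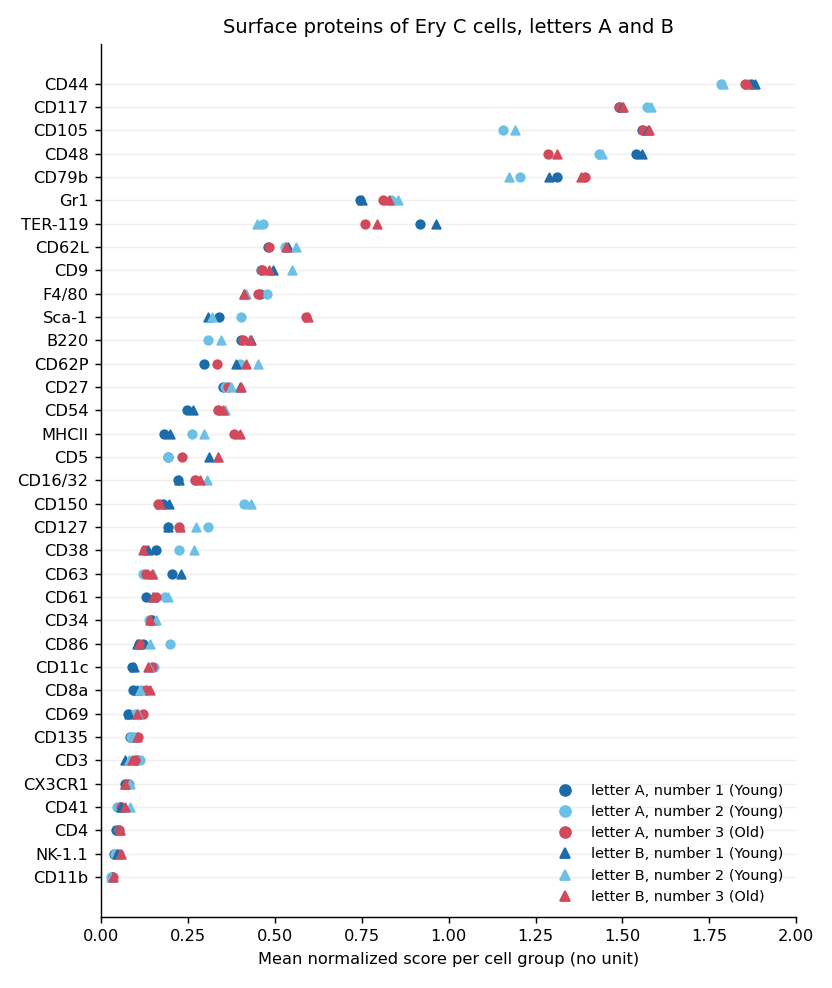
Mean normalized score of each of the 35 surface proteins in Ery C cells, with 1 point for each of the 6 cell groups of letters A and B. CD44, CD48, CD105, CD117 and CD79b had mean scores over 1, and the points of TER-119 and CD105 split, with A2 and B2 below the other groups.

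Early Ery A is one of the authors' early erythroid classes, and Ery C differed from it by more TER-119 and CD105 and by less of 9 other proteins. The comparison used 6 cell groups with 34 to 293 Early Ery A cells each. Of 35 proteins 11 were called (31.4%), 2 higher and 9 lower in Ery C, and the median difference over all 35 was -0.0162. TER-119 was 0.585 ± 0.204 higher in Ery C (SD over 6 cell groups). In Early Ery A its score was 0.155, 0.120, 0.149, 0.187, 0.130 and 0.0993 in A1, A2, A3, B1, B2 and B3, below every cell group of Ery C. As a share of ADT counts it was 0.860% in Ery C and 0.0757% in Early Ery A.

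CD105 was 0.251 ± 0.0392 higher in Ery C. Early Ery A had scores of 1.34, 0.859, 1.31, 1.36, 0.888 and 1.35 in the same order, so the low CD105 of the groups of number 2 was shared by both classes while the difference stayed between 0.216 and 0.301. Its share of ADT counts was 8.62% in Ery C and 4.39% in Early Ery A. CD44 was higher in all 6 cell groups, by 0.0928 ± 0.0143, just under the limit of 0.1, and took 59.2% against 44.0% of ADT counts. CD117 was lower in all 6, with a mean difference of -0.0480 ± 0.0338, and F4/80 differed by -0.0239 ± 0.0323 with both signs among the cell groups. Neither was called. As a share of ADT counts CD117 took 12.2% in Ery C and 17.7% in Early Ery A. Of the other named proteins that were not called, CD41 had -0.0554 ± 0.0293, CD61 -0.0232 ± 0.0267, CD34 0.0204 ± 0.0195 and Sca-1 -0.00542 ± 0.0533.

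The largest deficit of Ery C against Early Ery A was in CD27, a TNF receptor family protein of early progenitors and lymphocytes, at -0.343 ± 0.154. CD38, an ectoenzyme that consumes NAD, differed by -0.324 ± 0.102, and CD54, the adhesion molecule ICAM-1, by -0.307 ± 0.0267. Of these CD54 varied least, with 0.247, 0.337, 0.336, 0.263, 0.357 and 0.349 in Ery C and 0.540, 0.645, 0.672, 0.532, 0.656 and 0.689 in Early Ery A. MHCII, which presents peptides to T cells, differed by -0.281 ± 0.0712, and the tetraspanin CD9 by -0.264 ± 0.0398. CD150, a SLAM family protein of stem cells and megakaryocyte progenitors, differed by -0.220 ± 0.111, with -0.361 in A2 and -0.355 in B2 against -0.109 to -0.197 elsewhere. In Early Ery A it scored 0.772 in A2 and 0.786 in B2, against 0.272 to 0.394 in the other cell groups. Cells were sorted on CD150, and its differences cannot be told apart from the sort. The T cell ligand CD86 (-0.181 ± 0.0796), CD48 (-0.159 ± 0.0765) and the Fc receptors CD16/32 (-0.144 ± 0.0446) were the other called proteins. With at least 50 cells of each class, which left A2 and B2, CD48 had -0.0805 and CD27 -0.190, without cell groups as blocks CD48 had -0.0439, and in Old cells alone CD86 had -0.0836 and CD16/32 -0.0943. In linear terms CD48 took 9.23% of the ADT counts of Ery C and 19.5% of those of Early Ery A.

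The list counts stand beside 11 of all 35 proteins called against Early Ery A (31.4%), and no list was tested against that share. By list, 2 of 6 erythroid and c-Kit stage proteins were called higher and 1 lower, with a median difference of 0.0345. Of 6 megakaryocyte and platelet proteins 2 were called lower (median -0.0711), of 6 stem and multipotent proteins 3 (median -0.0822), of 8 myeloid and dendritic proteins 3 (median -0.0382) and of 6 adhesion proteins 2 (median -0.0300). None of 9 lymphoid and NK proteins was called (median 0.0109). Of the 8 proteins whose antibodies removed lineage cells in the sort, TER-119 alone was called, and the list had a median of 0.0140. The ADT depth of both classes differed too, with medians of 1738 counts in Ery C and 1103 in Early Ery A in letters A and B, and after thinning to 300 counts TER-119 was still 0.388 and CD105 0.253 higher.

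**Figure D2:**
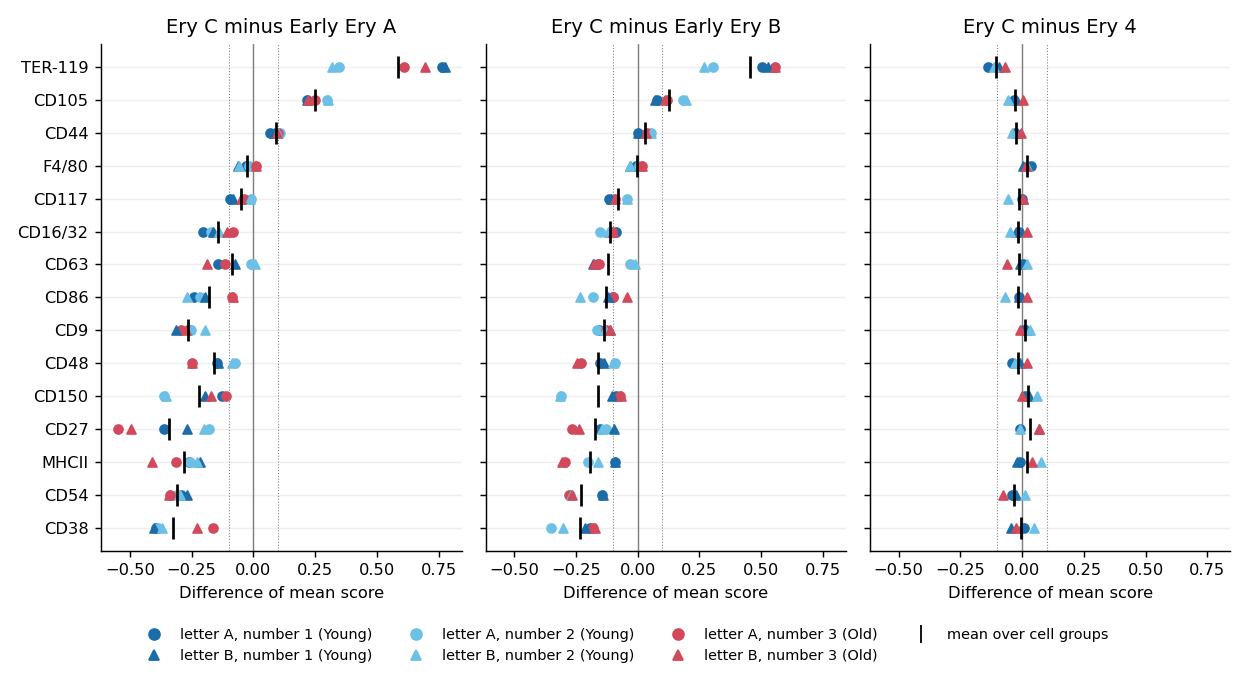
Difference of mean score, Ery C minus Early Ery A, Early Ery B or Ery 4, for each protein, with 1 point for each cell group and dashed lines at the call limit of 0.1. TER-119 lies right of 0 against both Early Ery classes, by 0.585 and 0.453 on average, and left of 0 against Ery 4, by 0.104.

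Against Early Ery B the same direction was seen for TER-119 and CD105, with smaller differences, and CD63 joined the lower proteins. The 6 cell groups held 81 to 505 Early Ery B cells each, and 12 of 35 proteins were called (34.3%), 2 higher and 10 lower. The median difference over all 35 was -0.0146. TER-119 was 0.453 ± 0.131 higher in Ery C. Early Ery B had 0.413, 0.161, 0.202, 0.436, 0.182 and 0.237 in A1, A2, A3, B1, B2 and B3, so its highest cell group lay just below the lowest of Ery C.

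CD105 was 0.126 ± 0.0527 higher than in Early Ery B, whose scores were 1.48, 0.971, 1.44, 1.5, 0.995 and 1.46. Without the cell groups of number 2 the mean difference was 0.0942, under the call limit. CD44 was 0.0305 ± 0.0225 higher, in all 6 cell groups. CD117 had -0.0817 ± 0.0313, lower in all 6 cell groups, and it was the largest difference that was not called. Its share of ADT counts was 12.2% in Ery C and 16.9% in Early Ery B. F4/80 differed by -0.00468 ± 0.0218. Sca-1 had -0.0417 ± 0.0393, CD41 -0.0292 ± 0.0152, CD34 0.0192 ± 0.0171 and CD61 0.00464 ± 0.0192, and none of them was called.

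Among the lower proteins, CD38 had -0.235 ± 0.0734, with 0.158, 0.223, 0.125, 0.136, 0.267 and 0.121 in Ery C and 0.349, 0.575, 0.307, 0.349, 0.568 and 0.293 in Early Ery B. The highest Ery C group lay below the lowest Early Ery B group. CD54 differed by -0.229 ± 0.0675, MHCII by -0.191 ± 0.0947, CD27 by -0.171 ± 0.0666, CD48 by -0.159 ± 0.0648, CD9 by -0.134 ± 0.0219, CD86 by -0.130 ± 0.0670 and CD16/32 by -0.113 ± 0.0222. CD150 had -0.160 ± 0.120, again with its largest differences in A2 (-0.312) and B2 (-0.315). CD63, a tetraspanin of lysosomes and platelet granules, had -0.120 ± 0.0770, but only -0.0309 in A2 and -0.0124 in B2, and -0.0427 after thinning to 300 counts.

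Several of these calls depended on the cells used. Without the cell groups of number 2, CD150 had -0.0829 and CD86 -0.0914, and in Old cells alone they had -0.0702 and -0.0732, under the call limit. After thinning to 300 counts CD150 had -0.0997, CD86 -0.0601 and CD16/32 -0.0688. CD48 had -0.0846 without cell groups as blocks, and CD63 had -0.0967 in Young cells alone.

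The lists gave similar counts against Early Ery B, where 12 of all 35 proteins were called (34.3%). No list was tested against that share. Of 6 erythroid and c-Kit stage proteins 2 were called higher and 1 lower (median 0.0129), of 6 megakaryocyte and platelet proteins 3 lower (median -0.0800), and of 6 stem and multipotent proteins 3 lower (median -0.10). Of the 8 myeloid and dendritic proteins 3 were called lower (median -0.0326), of the 6 adhesion proteins 2 (median -0.0252), and of the 9 lymphoid and NK proteins none (median 0.00561). Of the 8 sorted-out lineage proteins 1 was called higher, with a median of 0.00852.

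Ery 4 was close to Ery C in nearly every protein measured. The comparison rested on A1, B1, B2 and B3, with 145, 166, 22 and 27 Ery 4 cells, and 1 of 35 proteins was called (2.86%). The median difference over all 35 was -0.00818. TER-119 was 0.104 ± 0.0297 lower in Ery C, with 0.916, 0.963, 0.449 and 0.793 in Ery C against 1.06, 1.06, 0.562 and 0.863 in Ery 4. It lay below Ery 4 in each of the 4 cell groups but the call rested on the limit of 0.1, since the mean was -0.0924 without A1 and -0.0755 after thinning to 300 counts.

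The other markers differed by less than 0.03 and CD62L by less than 0.1. CD105 had -0.0281 ± 0.0264, CD44 -0.0236 ± 0.0148, CD117 -0.0135 ± 0.0303 and F4/80 0.0195 ± 0.0124. CD62L, the selectin of lymphocyte homing, was 0.0642 ± 0.0615 higher in Ery C, the largest difference that was not called. It was 0.150 in B3 and 0.0142 to 0.0668 in the other cell groups, with a mean of 0.0356 without B3. The proteins that set Ery C apart from the Early Ery classes differed little here, with 0.0302 ± 0.0441 for CD27, -0.00348 ± 0.0397 for CD38, -0.0327 ± 0.0355 for CD54, 0.0217 ± 0.0445 for MHCII, 0.0243 ± 0.0257 for CD150 and -0.0147 ± 0.0255 for CD48. No list other than the erythroid and lineage lists, which both hold TER-119, had a called protein, and the list medians lay between -0.0185 and 0.0126. RNA depth separated the classes more, with medians of 56505 UMIs in Ery C and 81180 in Ery 4, and its part in the TER-119 difference was not tested.

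In letters C and D, which held nearly all Ery B cells, Ery C could be compared with Ery B in C1, D1 and D3. This comparison was added after the data were seen. TER-119 was 0.163 ± 0.0263 lower in Ery C, with 0.717, 0.702 and 0.660 in Ery C and 0.897, 0.879 and 0.792 in Ery B, and it was the 1 protein of 35 called (2.86%). CD105 differed by -0.0469 ± 0.00329, and CD117 by 0.00259 ± 0.0169. Only 46, 67 and 41 Ery C cells entered it.

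The Ery C cells of letters C and D themselves differed from those of A and B. F4/80 had a mean score of 0.138 in C and D and 0.434 in A and B. The same direction was found in 17 of 17 other classes, with a median of -0.154, so it was not limited to Ery C. TER-119 was 0.677 against 0.866, CD27 0.248 against 0.377, CD62L 0.396 against 0.510, CD127 0.321 against 0.208 and CD79b 1.46 against 1.32. Of the 17 other classes, 17 had the same direction for CD79b and for CD127, 16 for TER-119, 13 for CD27 and 6 for CD62L. For CD79b their median difference was 0.140, against 0.136 in Ery C, and for TER-119 it was -0.0189, against -0.189.

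TER-119 was also the protein in which Ery C cells varied most among themselves. Its SD over cells, averaged over the 6 cell groups, was 0.296, the largest of the 35 proteins, against 0.145 in Early Ery A, 0.210 in Early Ery B and 0.270 in Ery 4. MHCII followed with 0.225 and Sca-1 with 0.223. Part of such a spread is counting error, since the median cell had 15 counts of TER-119 and 1 of MHCII.

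Cells with more TER-119 had less CD117 and CD48 and more CD105. The Pearson correlation of TER-119 with CD117 over cells was -0.378 on average, from -0.414 to -0.332 in the 6 cell groups, and -0.425 with every cell thinned to 300 counts. With CD48 it was -0.316 (-0.324 thinned) and with CD105 0.366 (0.288 thinned). These are descriptions over 84 to 1117 cells of a cell group, which share an age and a letter, and the scores of 1 cell share a denominator. The correlation of TER-119 itself was -0.0243 with ADT depth and 0.0184 with RNA depth, as means over the cell groups.

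Other relations moved with depth. CD44 correlated with CD105 at 0.637 and after thinning at 0.310. CD44 with CD117 changed sign, from 0.366 to -0.144, and both scores correlated with ADT depth, at 0.536 and 0.483. The correlation of CD117 with CD48 was 0.381 and then 0.164.

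To show the same in levels, the Ery C cells of each cell group were divided into 4 bins of equal size by their TER-119 score. TER-119 averaged 0.322, 0.658, 0.846 and 1.08 from the lowest to the highest bin. CD117 averaged 1.57, 1.54, 1.52 and 1.46 and CD48 averaged 1.5, 1.44, 1.41 and 1.36, so both declined at every step, while CD105 averaged 1.39, 1.43, 1.45 and 1.47. CD38 was 0.239 in the lowest bin and 0.122 in the highest, and CD150 was 0.331 and 0.198. Median RNA depth was 57137 UMIs in the lowest bin and 54948 in the highest. Median ADT depth was 1833, 1761, 1679 and 1688 counts from the lowest bin to the highest.

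**Figure D3:**
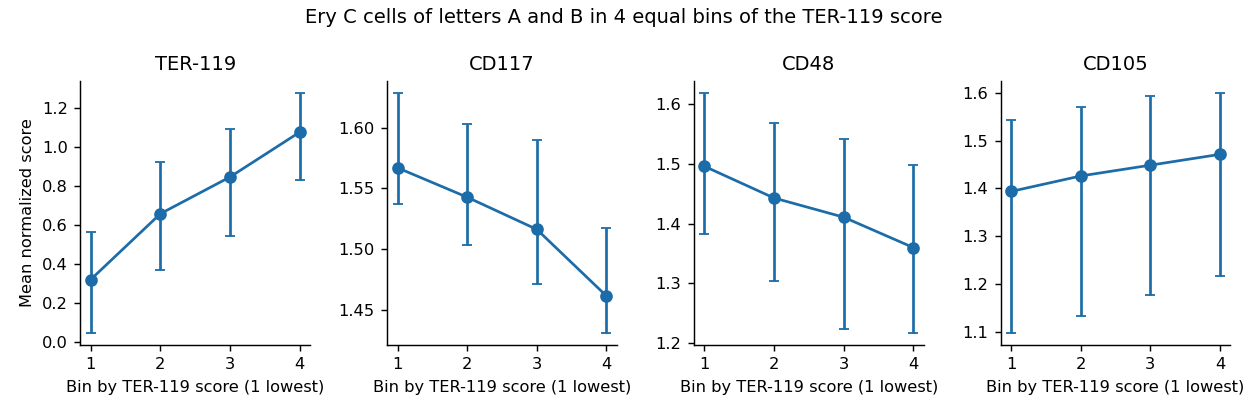
Mean score of surface proteins in Ery C cells divided into 4 equal bins by TER-119 score within each of 6 cell groups, from the lowest bin to the highest. Points are means over the cell groups, bars run from the lowest to the highest cell group, and each panel has its own axis range. CD117 goes from 1.57 to 1.46 and CD48 from 1.5 to 1.36, while CD105 goes from 1.39 to 1.47.

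Cell groups of number 2 and number 1 could be compared at 1 age. Among Young Ery C cells, number 2 minus number 1 was -0.450 in letter A and -0.514 in B for TER-119, and -0.400 and -0.384 for CD105. CD150 was 0.234 higher in A2 and 0.235 higher in B2, and CD117 was 0.0811 and 0.0822 higher. CD48 had -0.107 and -0.117. Lower TER-119 went with lower CD105 and higher CD117 and CD150, as over the bins, but with lower CD48, unlike over the bins. The labels do not say what the number stands for, and ADT depth differed with it, as given above. CD150 was also a sort marker, and the CD150 fraction of each cell group was not given.

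Old Ery C cells carried more Sca-1 and MHCII and less CD48 and TER-119 than Young Ery C cells. Letter A held 1202 Young and 487 Old cells and letter B 1139 and 472. Of 35 proteins 4 were called (11.4%), 2 higher and 2 lower in Old, 28 had 1 sign in both letters, and the median difference was 0.00792. The ADT depth of the ages was close, with medians of 1607 and 1609 counts in A and 1851 and 1870 in B. Since numbers mark the ages and nothing ties cells to animals, age and cell group cannot be told apart.

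Sca-1 (Ly-6A/E), a protein of stem and multipotent cells, scored 0.343 in Young and 0.591 in Old cells of letter A, and 0.309 and 0.596 in letter B. The mean difference was 0.267. As a share of ADT counts it was 0.158% and 0.579% in A and 0.124% and 0.598% in B. Of the Old cells, 49.3% in A and 54.2% in B lay above the 90th percentile of Young cells. MHCII scored 0.186 and 0.379 in A and 0.204 and 0.400 in B, a mean difference of 0.194, and 39.0% and 38.1% of Old cells lay above that percentile.

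CD48 went the other way, with 1.53 in Young and 1.29 in Old cells of letter A and 1.55 and 1.31 in letter B. The mean difference was -0.241, and the share of ADT counts went from 11.5% to 5.45% in A and from 11.7% to 5.70% in B. Of the Old cells, 53.4% in A and 47.5% in B lay below the 10th percentile of Young cells. Over Old cells the correlation of CD48 with Sca-1 was 0.0366 in A3 and -0.0497 in B3. TER-119 scored 0.884 and 0.752 in A and 0.926 and 0.793 in B.

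The TER-119 difference depended on how cells were weighted. It was -0.132 when all cells counted alike, and 0.0771 when the cell groups of each age did, because A2 and B2 are low in TER-119 and A4 and B4 held 7 cells and 1 cell. Cell groups 3 against 1 gave -0.158 in A and -0.170 in B. In letters C and D, with 14 and 41 Old cells, the differences were 0.117 and 0.0737 for Sca-1, -0.165 and -0.208 for CD48, -0.0987 and -0.0256 for TER-119, and 0.112 and -0.00961 for MHCII. Averaged over all 4 letters, TER-119 differed by -0.0968, under the call limit, and MHCII by 0.126 with both signs. After thinning to 300 counts MHCII differed by 0.119.

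With all cells counted alike, the markers of the class moved little with age. CD105 differed by 0.0286, CD44 by -0.0137, CD117 by -0.00447 and F4/80 by -0.00275, and none was called. The CD105 difference depended on the weighting too, since A2 and B2 scored 1.16 and 1.19 and A1, A3, B1 and B3 1.56 to 1.58. Number 3 against 1 gave 0.00353 in A and 0.00285 in B. With cell groups weighted equally 6 proteins were called with age, 4 higher and 2 lower in Old. Of these, 3 were also called with all cells counted alike. The marker CD105 and CD79b, both higher in Old, and CD150, lower in Old, were called with equal weights only. In letters C and D, CD105 had the opposite sign, with -0.0598 and -0.0666. CD16/32 differed by 0.0494, CD38 by -0.0316, CD150 by -0.0361, CD41 by 0.00579, CD61 by 0.0111, CD34 by -0.00493 and CD9 by -0.00587. With all cells counted alike, CD79b (0.0912) and CD54 (0.0812) were the largest differences that were not called. Counted so, 4 of all 35 proteins were called (11.4%), and no list was tested against that share. By list, 1 of 6 stem and multipotent proteins was called higher (Sca-1) and 1 lower (CD48), with a median of 0.00230, 1 of 8 myeloid and dendritic proteins was called higher (MHCII, median 0.0238), and 1 of 6 erythroid and 1 of 8 lineage proteins was called lower, TER-119 in both, with medians of -0.00906 and 0.00790. No megakaryocyte, lymphoid or adhesion protein was called.

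Other classes shared part of this. In letters A and B, MHCII was called higher in Old cells in 12 of 12 other classes with enough cells. Their median was 0.390, above the 0.194 of Ery C. In letters C and D, MHCII in number 3 minus number 1 had both signs among the classes looked at. It ran from -0.101 in Early Ery A of D to 0.103 in Ery 4 of C. The counts for the next 3 proteins are also from letters A and B. Sca-1 had the direction of Ery C in both letters in 10 of 12 classes but was called in 1, with a median of 0.0728. CD48 had it in 11 and was called in 2, with a median of -0.0629 and a lowest value of -0.297 in MKP, the authors' megakaryocyte progenitors. TER-119 had it in 6 of 12 and was called in none. Of these classes, Early Ery B had a mean TER-119 score of 0.223. The others had 0.0738 to 0.127, which leaves little room for a fall of 0.1. Ery 4 had too few Old cells to be among them.

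In letters A and B, taking number 3 against number 1 alone brought the other erythroid classes closer to Ery C. Sca-1 then differed by 0.269 in Ery C, 0.216 in Early Ery A, 0.291 in Early Ery B and 0.213 in Ery 4 of letter B. CD48 differed by -0.249, -0.146, -0.156 and -0.273 in the same order, and TER-119 by -0.164, -0.0467, -0.205 and -0.196. Differences between classes were not tested.

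**Figure D4:**
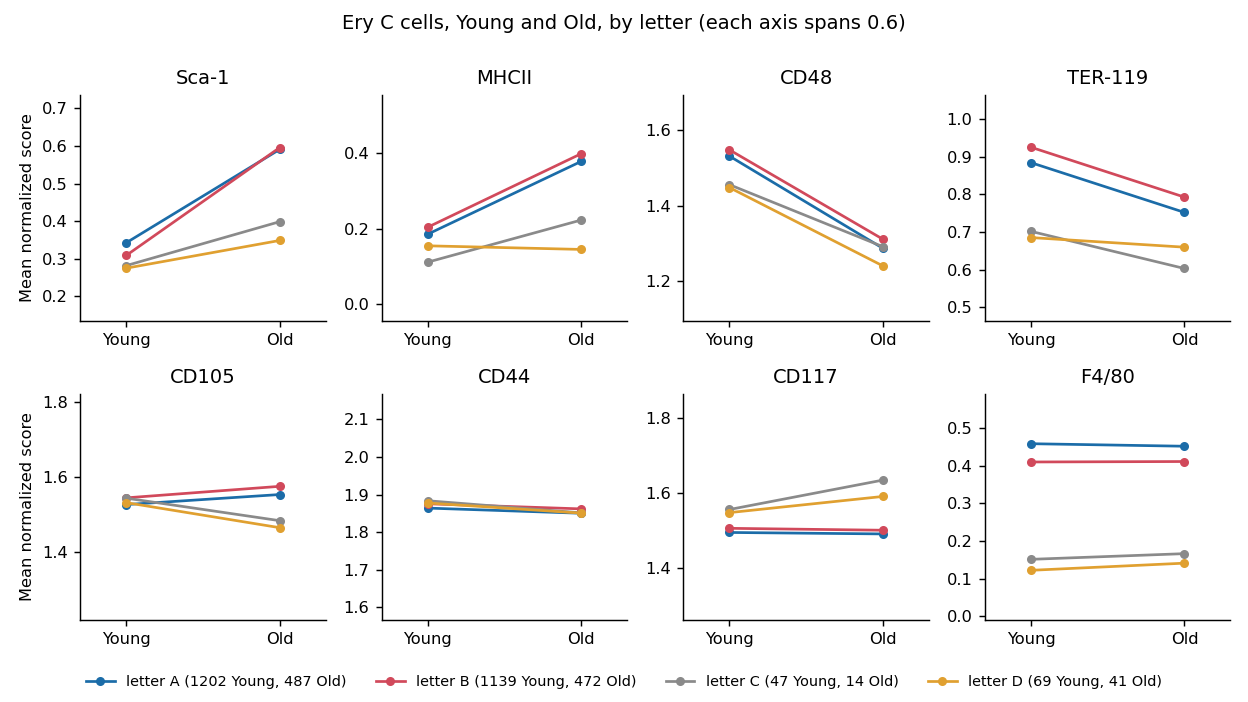
Mean scores of 8 surface proteins in Young and Old Ery C cells, with 1 line for each letter and axes of equal span. Sca-1 rises from 0.343 to 0.591 in letter A and from 0.309 to 0.596 in letter B, and CD48 falls from 1.53 to 1.29 and from 1.55 to 1.31.

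Ery C made up a smaller share of Old than of Young cells in both main letters. It was 33.8% of Young cells (exact 95% interval 32.2 to 35.4) and 16.0% of Old cells (14.7 to 17.4) in letter A, and 31.9% (30.4 to 33.4) and 15.3% (14.0 to 16.6) in letter B. The intervals cover counting error only. By cell group the share was 52.6% in A1 and 49.3% in B1, 20.8% in A3 and 20.0% in B3, 5.93% in A2 and 5.87% in B2, and 0.955% in A4 and 0.135% in B4. Numbers 2 and 4 were thus poor in Ery C at both ages.

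With cell groups pooled, the direction in letters A and B turned with the denominator. Of erythroid cells alone, Ery C was 50.1% in Young and 65.2% in Old cells of letter A, and 48.3% and 58.2% in letter B. By number, this share rose only from A1 (74.97%) to A3 (77.42%). It fell from B1 (72.01%) to B3 (70.51%), from A2 (9.37%) to A4 (5.51%) and from B2 (9.42%) to B4 (0.699%). In letter A, number 2 held 907 of 2397 Young erythroid cells and number 4 held 127 of 747 Old ones. In letter B these were 892 of 2357 and 143 of 811. In letters C and D, where Ery C is rare, it was 2.05% and 0.771% of all cells in C and 2.32% and 1.82% in D. Of erythroid cells it was lower in Old cells there too, with 4.01% and 1.997% in C and 4.53% and 4.24% in D. The sort and the pooling of sorted populations also set these shares.

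**Figure D5:**
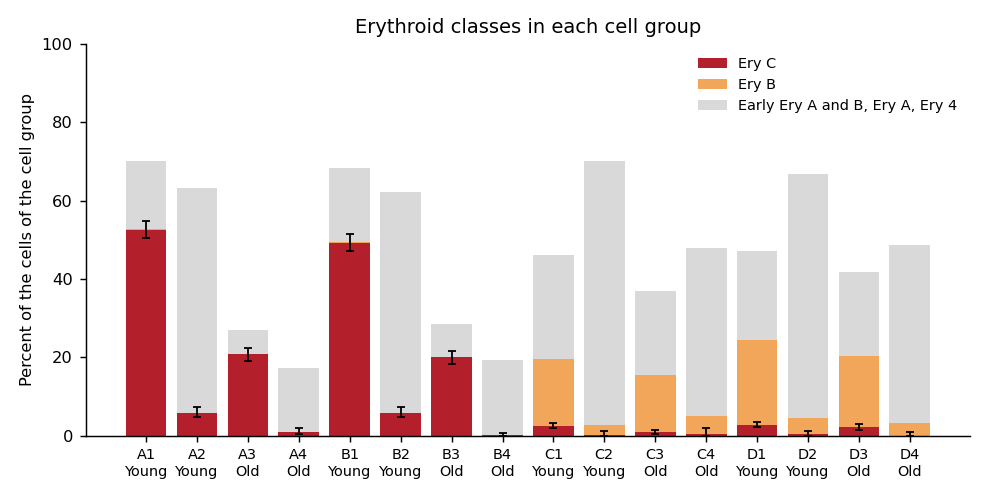
Stacked bars of the percent of cells of each of the 16 cell groups that are Ery C, Ery B or another erythroid class, with exact 95% intervals on Ery C that cover counting error only. A1 and B1 reach 52.6% and 49.3% and A3 and B3 reach 20.8% and 20.0%, while Ery C in groups of numbers 2 and 4 stays at or below 5.93%.

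The reporter was read from the authors' call of Egfp expression in each cell. In letters A and B, 25 of 2341 Young Ery C cells were Egfp-negative (1.07%, exact 95% interval 0.692 to 1.57) and 34 of 959 Old cells were (3.55%, 2.47 to 4.92). The shares were 1.16% and 3.70% in letter A and 0.966% and 3.39% in letter B. In letters C and D they were close, with 4 of 116 Young (3.45%) and 2 of 55 Old Ery C cells (3.64%) Egfp-negative. Over all cells of letters A and B the shares were 1.56% and 10.4%. There they were 1.43% and 5.10% in Early Ery A, 1.20% and 7.92% in Early Ery B, and 1.43% and 15.9% (of 44 Old cells) in Ery 4. The Old interval of Early Ery A, 2.47 to 9.18, overlapped that of Ery C. In letters A and B, 326 of 690 Old MKP cells were Egfp-negative (47.2%). So were 111 of 143 Old cells (77.6%) of HSC, the authors' stem cell class. Old Ery C cells thus had a lower Egfp-negative share than Old cells at large, which include MKP and HSC. The share of Old cells without MKP and HSC was not computed. The 59 negative Ery C cells of letters A and B had a median of 56345 RNA UMIs and the 3241 positive ones 56522.

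Between these cells, CD48 differed by -0.162, negative minus positive, but by -0.0230 among Young and -0.145 among Old cells, and 34 of the 59 negative cells were Old. TER-119 was 0.0921 higher in the negative cells, by 0.119 among Young and 0.141 among Old cells. F4/80 had -0.0914, with -0.0626 and -0.113. With 25 and 34 negative cells these are descriptions.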

How the data were processed

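ADT counts from 8 libraries of c-Kit-enriched marrow were analysed. The submitters' processing notes name Cell Ranger and mm10, with no version given in the sources used here. The deposited matrix gives raw counts for 35 antibodies and 22790 cells, of which 22602 are annotated in a table of cells. The 188 cells in the matrix alone were not used. The authors made the normalized score from the counts by a centred log ratio and a further logarithm, and it was rebuilt from the deposited counts to within 5e-10. The share of mitochondrial reads is a percent of RNA counts as deposited. CD105 was read through a biotinylated antibody and barcoded streptavidin. The RNA classes, ages and Egfp calls are those of the authors. How doublets were treated is not given in the sources used here, and no caller was run.

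Scores were averaged by cell group, and differences, percentages of ADT counts and exact Clopper-Pearson intervals at 95% were computed here. Intervals cover counting error only. The named proteins were the 4 markers, TER-119, CD41, CD150, Sca-1, CD16/32, CD34, CD48, CD38, CD9 and CD61, and every called protein up to 12 in a comparison. CD79b, CD62L, CD127 and B220, and CD27, CD54, CD63 and MHCII where not called, were named after their values were seen. Members, lists and call rules were chosen with earlier results of these data known. The comparison with Ery B and several alternatives were added after the data were seen. Alternatives were other scales, thinning to 300 counts with seed 0, other thresholds and cell minimums, depth windows, and leaving out cell groups. The procedure was tested on simulated data. Python 3.11.15, numpy 2.4.6, pandas 2.3.3, scipy 1.17.1 and matplotlib 3.10.9 were used.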

Additional observations from a re-analysis of the deposited data

Results flagged for a closer look

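The difference of F4/80 between Ery C and Early Ery A had opposite signs by age. Its mean was 0.0118 in the 2 Old cell groups (0.0112 to 0.0124) and -0.0417 in the 4 Young ones (-0.0608 to -0.0178), and the difference between ages was not tested.

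CD117 in Ery C minus Ery 4 was -0.0587 in cell group B2, far from the other 3 cell groups, which lay between -0.00197 and 0.00446. B2 held 22 Ery 4 cells. Of 51 differences looked at in this way, chance alone marks about 1 in 20.

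CD16/32 was higher in Old than in Young Ery C cells, by 0.0494 (0.0454 and 0.0534 in letters A and B), while in Early Ery B the difference was -0.0220 (-0.0234 and -0.0207). With number 3 against number 1 alone, the CD16/32 difference in Early Ery B was 0.0574. The difference between the classes was not tested.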

How the results depend on the processing

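On a log2 scale of ADT counts per 1000 plus 1, 21 proteins were called against Early Ery A, 2 against Ery 4 and 8 with age. With scores centred on the lineage antibodies 20 were called against Early Ery A and 0 against Ery 4. With a limit of 0.2 the counts were 3 against Early Ery B, 0 against Ery 4 and 2 with age. Medians over cells gave 0 against Ery 4 and 8 with age. A score with 1 logarithm, thinning to 300 counts and letter B alone each gave 0 against Ery 4, and all 4 letters gave 2 with age. Leaving out 1 cell group gave 11 to 12 calls against Early Ery A, 12 to 12 against Early Ery B and 0 to 1 against Ery 4, and 1 letter alone gave 4 to 4 with age.

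The share of Ery C, Old minus Young, was -17.2 percentage points (-17.8 to -16.6 by letter), 12.5 of erythroid classes, -9.04 over all 4 letters, -30.5 for number 3 minus 1 and -5.35 for number 4 minus 2. The age difference of TER-119 was 0.0771 with cell groups weighted equally. The mean correlation of TER-119 with CD117 was -0.425 after thinning and -0.387 to -0.371 without 1 cell group. In letters A and B the Egfp-negative share differed by 2.48 points, 2.42 to 2.53 by letter. The causes were not tested. Of the single-protein values recomputed on the deposited score, 301 moved by no more than 1 SD over cell groups and 41 by more against Early Ery A, 324 and 37 against Early Ery B, 212 and 26 against Ery 4, and, by 1 SD over 2 letters, 128 and 66 with age. On the 2 other scales, whose values cannot be set beside the score, a protein's call was kept in 28 cases and changed in 8 against Early Ery A, 31 and 7 against Early Ery B, 27 and 1 against Ery 4, and 29 and 1 with age. Without cell groups or letters as blocks, 15 proteins were called against Early Ery A, 12 against Early Ery B, 1 against Ery 4 and 4 with age.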

Other observations

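The cell groups of number 2 differed from number 1 in Ery C for the proteins CD79b (-0.111), B220 (-0.0902) and CD44 (-0.0894) as well, and for CD38 (0.0983) in the other direction, as means over letters A and B.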
